A study of Mus musculus with 18 samples.

Results

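The 9 genes described here encode enzymes that make deoxyribonucleotides, thymidylate, one-carbon folates and guanine nucleotides: Rrm1, Rrm2, Tyms, Tk1, Shmt1, Shmt2, Mthfd1, Mthfd2 and Impdh2. They were chosen by name, with no measured value in the rule, and are 9 of the 25209 genes listed for each library. All 9 passed the filter on low values (1 TPM or more in 3 or more libraries), as did 12695 of the listed genes in all. TPM, the unit of every level below, is a gene's reads scaled by its length and by the library's total. The study sequenced polyadenylated RNA from 3T3-L1, a mouse embryo fibroblast line that turns into fat-storing cells when treated with hormones; the labels name no genetic change. The 18 libraries fall into 6 groups of 3, named Control, MCE1, MCE2, Day4, Day6 and Day8. By the sample titles the days are counted after the differentiation stimuli, without saying whether from their start or their end. The protocol's final day was day 10. Cells stood at confluence for 2 days, were given 10 µg/mL insulin, 0.25 µM dexamethasone and 0.5 mM IBMX for 48 h, and afterwards received 5 µg/mL insulin in medium renewed every 2 days. The series title refers to mitotic clonal expansion, the round of division that precedes fat-cell formation in this line. The labels give no hour for MCE1 and MCE2, do not say at which moment the Control cells were taken, and do not say whether the 3 libraries of a group came from separate cultures. The p-values below therefore measure the spread between these libraries, which may be technical.

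Ribonucleotide reductase turns ribonucleotides into deoxyribonucleotides, the building blocks of DNA. Its large subunit, RRM1, is a stable protein, and its small subunit, RRM2, is made in S phase and degraded at later stages of the cycle. Thymidylate comes either from thymidylate synthase (TYMS), which uses a one-carbon folate, or from salvage of thymidine by thymidine kinase 1 (TK1). The one-carbon units come largely from serine: SHMT1 in the cytosol and SHMT2 in mitochondria release them, and MTHFD1 in the cytosol and MTHFD2 in mitochondria interconvert the folates that carry them. IMP dehydrogenase, encoded by Impdh1 and Impdh2, makes the committed step to guanine nucleotides. Dividing cells need all of these products, while resting cells meet their smaller need with, among others, the p53-inducible small subunit Rrm2b and the mitochondrial thymidine kinase Tk2.

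The upstream sequences below are shown because the first 4 of these genes varied together across the groups while the fifth, Mthfd2, was the flattest of the 9. Each is the 120 bases before the gene's start in RefSeq, build GRCm38.p6, printed 5′ to 3′ on the gene's strand, at chr7:102441575-102441694 (+) for Rrm1, chr12:24708134-24708253 (+) for Rrm2, chr5:30073626-30073745 (-) for Tyms, chr11:117826015-117826134 (-) for Tk1 and chr6:83317605-83317724 (-) for Mthfd2. Capitals mark CCAAT (read as ATTGG on the opposite strand), the core that the factor NF-Y recognises, or CACGTG, the E-box of MYC and USF.
Rrm1: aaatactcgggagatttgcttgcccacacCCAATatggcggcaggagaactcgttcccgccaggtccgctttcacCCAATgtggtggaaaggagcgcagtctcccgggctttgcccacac
Rrm2: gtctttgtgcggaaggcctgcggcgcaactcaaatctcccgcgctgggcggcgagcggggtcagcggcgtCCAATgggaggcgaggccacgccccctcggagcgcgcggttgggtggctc
Tyms: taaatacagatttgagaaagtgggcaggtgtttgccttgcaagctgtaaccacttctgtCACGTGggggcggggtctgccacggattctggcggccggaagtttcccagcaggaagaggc
Tk1: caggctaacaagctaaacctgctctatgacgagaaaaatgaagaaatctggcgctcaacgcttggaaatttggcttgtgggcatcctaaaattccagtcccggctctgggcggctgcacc
Mthfd2: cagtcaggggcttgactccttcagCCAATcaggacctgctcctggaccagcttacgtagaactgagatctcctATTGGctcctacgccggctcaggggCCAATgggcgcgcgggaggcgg
The search covered 300 bases per gene, 250 before to 50 after the start, on both strands, and all 9 genes matched the RefSeq table. CCAAT was found in 6 of the 9 windows, those of Rrm1, Rrm2, Shmt1, Mthfd1, Mthfd2 and Impdh2, against 37.4% of all 32851 windows. Rrm1 has it at positions -91 and -45, Rrm2 at -50, and Mthfd2 at -96, -47 and -22, counted from the start and given for the base of the match nearest the 5′ end. CACGTG was found in 2 of 9, Tyms at -61 and Impdh2 at -110, against 7.15% of all windows. None of the 9 windows held any of the 4 E2F-type octamers searched (TTTCGCGC, TTTGGCGC, TTTCCCGC and TTTGGCGG), which 2.37% of all windows hold. Only these exact spellings were counted, so the search does not show that the windows lack E2F-type sites. The printed Rrm1 stretch, for one, holds ttcccgcc, a near match to TTTCCCGC that was not counted. No window held TGATGNAAN, the composite of ATF4 and C/EBP, which 3.95% of all windows hold. Tk1 held none of the motifs searched. These are matches of letters in 1 window per gene and were not tied to any measurement in these libraries.

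Across the 18 libraries the listed TPM summed to 869497 to 880273, and the correlation of log2(TPM + 1) was 0.976 to 0.991 within groups and 0.811 to 0.976 between them. Read depth is unknown, because TPM keeps none, so the spread between libraries is the only error available. Markers of the labelled cell behaved by group: 8 fat-cell genes summed to 128 to 140 TPM in Control, 3572 to 3919 at MCE2, 18430 to 19370 at Day4, 31130 to 33120 at Day6 and 26500 to 29500 at Day8. The 6 fibroblast genes summed to 4523 to 5054 TPM in Control, 3035 to 3139 at MCE2 and 10340 to 15160 at Day8. They did not move together. In Control and at Day8, Thy1 averaged 302 and 131 TPM and Fn1 521 and 219. The other 4 were higher at Day8, among them Col3a1 at 453 and 4831. Macrophage markers summed to at most 19.7 TPM, with Adgre1 and Ptprc at 0. Cd14 was the highest of them, at a mean of 11.6 TPM in Control, where Cd68, Lyz2 and Csf1r averaged 2.28, 2.37 and 1.82. Endothelial markers summed to at most 1.05 TPM and erythroid markers to 0. The muscle list reached 44.7 TPM at Day8 through Des, with Myod1, Myog and Ckm at 0, and the 4 epithelial markers summed to at most 12.4. TPM is a share of the RNA, corrected for length, so levels of different genes are on one scale. Ratios between genes also depend on the annotation used, which is not given, and on how overlapping or shared sequence was counted. The SD between libraries does not cover that error. In these bulk libraries fewer cells with a transcript and less transcript per cell cannot be told apart.

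At MCE1 the DNA precursor genes Rrm1, Rrm2, Tyms and Tk1 were higher than in Control, at MCE2 they had dropped below that level, and from Day4 onward they were at a small fraction of it. Summed over the 9 genes, TPM was 1459 ± 51.0 (SD, n = 3) in Control, 1922 ± 7.12 at MCE1, 1195 ± 14.8 at MCE2, 647.5 ± 17.0 at Day4, 577.9 ± 15.1 at Day6 and 441.3 ± 8.47 at Day8. Mthfd2 stood apart from the other genes: it was highest at MCE2 and lost the least by Day8. Its share of the summed TPM went from 12.2% in Control and 8.77% at MCE1 to 33.1% at Day8.

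**Figure D1:**
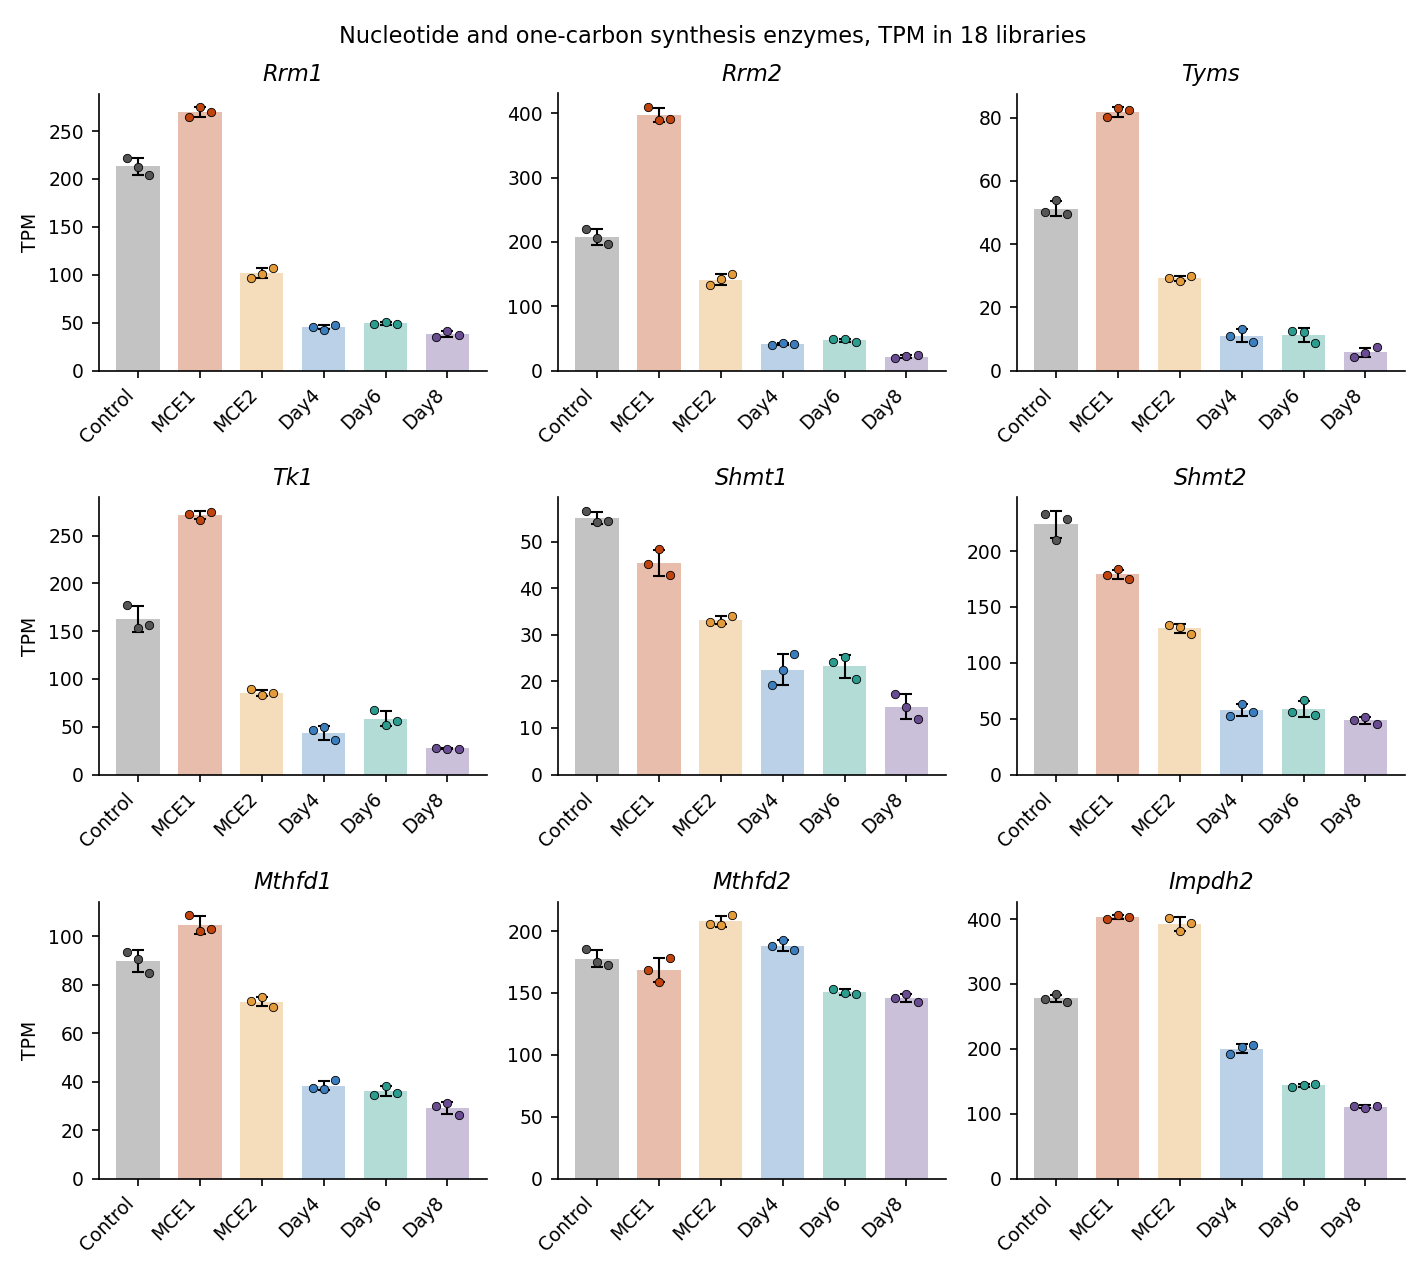
TPM of each enzyme gene (vertical axes, linear from 0) in the 6 groups; points are libraries, bars are means and error bars are SD of 3 libraries. Rrm1, Rrm2, Tyms and Tk1 peak at MCE1, Shmt1 and Shmt2 are highest in Control, and Mthfd2 stays between 143 and 213 TPM in all 18 libraries.

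Each gene was tested with limma on log2(TPM + 1) over all 12695 genes, and a gene is said to rise or fall where its adjusted p was under 0.05. From Control to MCE1, 6 of the 9 genes rose (Rrm1, Rrm2, Tyms, Tk1, Mthfd1 and Impdh2) and Shmt2 fell, where 22.0% of all tested genes rose and 29.4% fell. The median log2 fold change of the 9 was 0.34, beside -0.06 for all genes tested. From MCE1 to MCE2, 7 fell and Mthfd2 rose, against 25.2% of all genes falling and 17.7% rising, with a median of -0.51 beside -0.05. Only Impdh2 was not called at that step.

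From MCE2 to Day4 all 9 fell, against 22.0% of all genes (29.6% rose), with a median of -0.97 beside 0.07. Between Day4 and Day6, 6 of the 9 were not called: Tk1 rose and Mthfd2 and Impdh2 fell, against 14.5% of all genes rising and 11.2% falling, and the medians were 0.03 and 0.02. Of the 9, 8 fell from Day6 to Day8, all but Mthfd2, against 11.6% of all genes (10.1% rose), with a median of -0.37 beside 0. Neighbouring steps share a group of libraries, so a high or low group enters 2 steps with opposite sign.

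Against Control, 7 were lower at MCE2 and 2, Mthfd2 and Impdh2, were higher, where 39.1% of all genes were lower and 23.4% higher. The all-gene median was itself -0.17 in that comparison, beside -0.72 for the 9. At Day4, 8 were lower and Mthfd2 was not called, with 39.3% of all genes lower and 29.7% higher. All 9 were lower at Day6, with 39.4% of all genes lower and 30.2% higher, and again at Day8, with 39.7% lower and 31.7% higher. The medians of the 9 were -1.88, -1.46 and -2.18 at Day4, Day6 and Day8, beside -0.11, -0.12 and -0.11 for all genes. These comparisons share the Control libraries. Scaling each library by median ratios instead moved the median of all genes up by 0.17 in MCE2 against Control, and by 0.13, 0.13 and 0.12 in the 3 later ones.

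**Figure D2:**
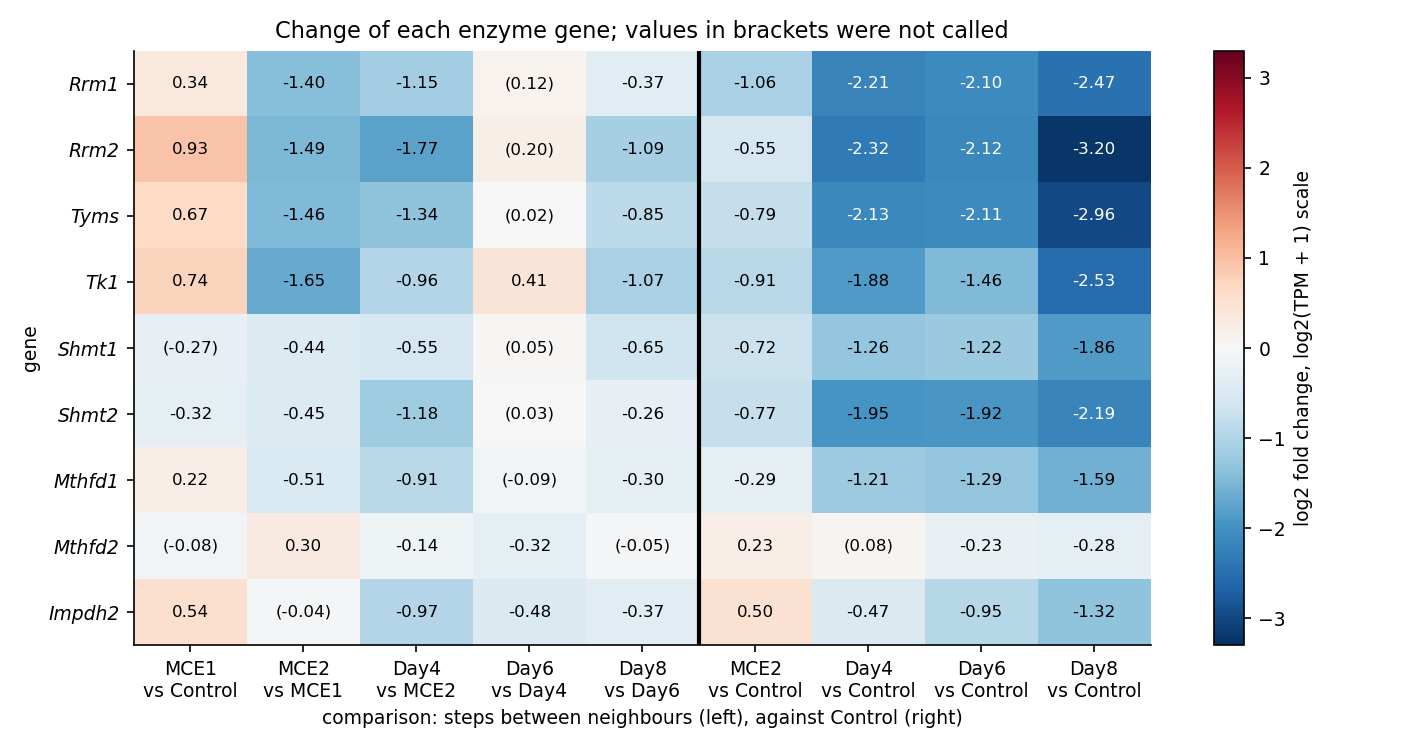
Log2 fold change on the log2(TPM + 1) scale (colour and printed value) of each enzyme gene (rows) in the 5 steps between neighbouring groups and the 4 comparisons with Control (columns); values in brackets did not reach an adjusted p of 0.05. The 4 upper rows are red at MCE1 against Control and deep blue at Day8, while the Mthfd2 row stays between -0.32 and 0.30.

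Rrm1 and Rrm2, which encode the large and small subunits of ribonucleotide reductase, were at nearly the same level in Control and apart at MCE1, MCE2 and Day8. Rrm1 (chr7:109590209-109618285, mm9) was at 222, 213 and 204 TPM in the Control libraries, 265, 276 and 270.1 at MCE1 and 96.9, 101 and 107 at MCE2. It went on at 45.5, 42.8 and 47.1 TPM at Day4, 49.0, 50.3 and 48.1 at Day6 and 35.4, 41.5 and 36.6 at Day8. No neighbouring groups overlapped in the order of its means, MCE1, Control, MCE2, Day6, Day4, Day8. The rise at MCE1 was 0.34 in log2 (SE 0.06, limma adjusted p 0.000178), and the drop to MCE2 was -1.40 (adjusted p 5.72e-11).

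Rrm2 (chr12:25393119-25399011) read 221, 206 and 197 TPM in Control, 410.4, 390.4 and 391 at MCE1 and 132, 142 and 149.5 at MCE2. Later it was at 39.3, 42.2 and 40.9 TPM at Day4, 48.3, 48.3 and 44.7 at Day6 and 19.2, 21.9 and 24.1 at Day8. Rrm2 had the widest range of the 9 genes, 18.3-fold between the highest and lowest group means, against 7.14-fold for Rrm1. All 3 MCE1 libraries lay far above every other library, with a log2 change from Control of 0.93 (SE 0.07, limma adjusted p 2.02e-08). The largest step of any of the 9 genes was the fall of Rrm2 from MCE2 to Day4, -1.77 (SE 0.07, limma adjusted p 2.8e-11). Between Day4 and Day6 Rrm2 was slightly higher, 0.20, without a call (limma adjusted p 0.0522); without Day6 replicate 3 the adjusted p was 0.0482. By Day8 it had 10.5% of its Control level (-3.20, limma adjusted p 1.87e-15) and Rrm1 had 17.7% (-2.47, adjusted p 5e-15). The step from Day6 to Day8 was -1.09 for Rrm2 and -0.37 for Rrm1.

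The balance of the 2 subunit transcripts differed from Control by more than the spread between libraries in 3 of the 5 other groups. The log2 ratio of Rrm2 to Rrm1, computed in each library from TPM + 1, averaged -0.04 in Control, 0.55 at MCE1, 0.47 at MCE2, -0.14 at Day4, -0.06 at Day6 and -0.78 at Day8. The TPM ratio of Rrm2 to Rrm1 was 0.975 ± 0.0172 in Control, 1.47 ± 0.0684 at MCE1 and 0.576 ± 0.0723 at Day8 (SD, n = 3). MCE1 and MCE2 did not overlap Control on the high side, and Day8 did not on the low side. Each of these 3 contrasts gave an exact two-sided permutation p of 0.1, the smallest that 3 libraries against 3 allow, and 0.154 after Benjamini-Hochberg adjustment over the 20 ratio tests made.

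Tyms and Tk1, which supply thymidylate by synthesis and by salvage, followed the same order of groups as the reductase. Tyms (chr5:30384740-30400165) was the lowest of the 9 in every group but MCE1, at 50.2, 53.9 and 49.5 TPM in Control, 80.1, 83.1 and 82.3 at MCE1 and 29.1, 28.3 and 30.0 at MCE2. Its later values were 11.1, 13.1 and 8.96 TPM at Day4, 12.6, 12.3 and 8.63 at Day6 and 4.40, 5.62 and 7.35 at Day8. Day4 and Day6 overlapped and all other neighbours in its order were apart. The log2 change was 0.67 at MCE1 (SE 0.16, limma adjusted p 0.00192), -1.46 from there to MCE2 and -1.34 on to Day4. Tyms ended at 11.3% of Control, -2.96 in log2 (SE 0.16, limma adjusted p 5.6e-11).

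Tk1 (chr11:117676833-117687328) stood at 178, 153 and 156 TPM in Control, 273, 266 and 275 at MCE1 and 89.1, 82.8 and 85.3 at MCE2, all apart from each other. Thereafter it was at 46.4, 49.6 and 35.6 TPM at Day4, 67.5, 52.0 and 56.2 at Day6 and 28.2, 27.1 and 26.5 at Day8. Its fall from MCE1 to MCE2, -1.65 (SE 0.11, limma adjusted p 4.47e-09), was the largest of the 9 genes at that step. Tk1 was the gene called higher at Day6 than Day4, by 0.41 (SE 0.11, limma adjusted p 0.00911). That call was lost without Day6 replicate 1, whose 67.5 TPM was the highest of its group (0.31, adjusted p 0.0531), and when the 6 libraries were fitted alone (adjusted p 0.0894). It then fell by 1.07 to Day8. The log2 ratio of Tk1 to Tyms was 1.65 in Control and 1.72 at MCE1, with overlapping libraries (exact permutation p 0.6). It was 1.90 at Day4 and 2.30 at Day6, where the libraries did not overlap Control (exact permutation p 0.1 each, 0.154 adjusted over the 20 ratio tests), and 2.08 at Day8, where they did (exact permutation p 0.2, 0.286 adjusted).

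Shmt1 and Shmt2, the cytosolic and mitochondrial serine hydroxymethyltransferases, had their highest levels in Control, unlike the 4 genes above. Shmt1 (chr11:60602399-60624767) was at 56.6, 54.1 and 54.4 TPM in Control, 45.1, 48.4 and 42.8 at MCE1 and 32.8, 32.6 and 34.0 at MCE2. In the differentiated groups it was at 19.2, 22.4 and 25.9 TPM at Day4, 24.1, 25.2 and 20.4 at Day6 and 17.3, 14.4 and 12.0 at Day8. Control and MCE1 did not overlap, but the log2 change of -0.27 (SE 0.12) missed the threshold, with a limma adjusted p of 0.0662; fitted on those 6 libraries alone the adjusted p was 0.00454. Shmt1 then fell at the 2 steps to MCE2 and Day4 (-0.44 and -0.55, limma adjusted p 0.00652 and 0.00111) and again from Day6 to Day8 (-0.65, adjusted p 0.00113). In the GENCODE vM21 annotation Smcr8 lies on the opposite strand over part of Shmt1 and shares 3.37% of its 50-base stretches. By the mm9 positions listed with the TPM, no other gene overlaps Shmt1. Smcr8 averaged 33.3 TPM in Control, 16.4 at MCE1 and 14.8 at Day8, and the library kit did not mark strand.

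Shmt2 (chr10:126954179-126959500) held 233, 210.1 and 229 TPM in Control, 178, 184 and 175 at MCE1 and 134, 132 and 126 at MCE2. It was down to 52.6, 63.3 and 56.3 TPM at Day4, 55.7, 67.1 and 52.9 at Day6 and 48.8, 51.1 and 45.5 at Day8. Only Day4 and Day6 overlapped among neighbours. Shmt2 fell at MCE1 by 0.32 in log2 (SE 0.08, limma adjusted p 0.00419), while the DNA precursor genes rose. Its main drop came between MCE2 and Day4, -1.18 (SE 0.08, limma adjusted p 1.09e-08). The last step, -0.26 (limma adjusted p 0.0333), lost its call without Day6 replicate 2 (-0.16, adjusted p 0.145), Day8 replicate 1 (-0.27, 0.0647) or Day8 replicate 3 (-0.22, 0.111), and in a fit of those 6 libraries (0.17).

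The transcript of the mitochondrial enzyme was the more abundant of the SHMT pair throughout. The TPM ratio of Shmt2 to Shmt1 was 4.07 ± 0.164 (SD, n = 3) in Control and 3.96 ± 0.220 at MCE2. It was then 2.58 ± 0.357 at Day4, 2.52 ± 0.182 at Day6 and 3.39 ± 0.501 at Day8. The Day4, Day6 and Day8 libraries did not overlap Control (exact permutation p 0.1 each, 0.154 adjusted), while those of MCE1 and MCE2 did (exact permutation p 0.4 and 0.5). The log2 ratio differed from Control by -0.68, -0.71 and -0.32 in these 3 groups.

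Mthfd1 and Mthfd2, the cytosolic and mitochondrial folate enzymes, went different ways. Mthfd1 (chr12:77356219-77420807) was at 93.5, 90.5 and 84.9 TPM in Control, 109, 102 and 103 at MCE1 and 73.2, 74.8 and 70.9 at MCE2. It read 37.4, 37.0 and 40.5 TPM at Day4, 34.5, 38.3 and 35.1 at Day6 and 30.0, 31.2 and 26.3 at Day8. Day4 and Day6 overlapped and the other neighbours did not. The rise at MCE1, 0.22 (SE 0.07, limma adjusted p 0.0121), was the smallest of the 6 called and was lost without Control replicate 3 (0.18, adjusted p 0.0616) or MCE1 replicate 1 (0.19, 0.0545).

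The steps of Mthfd1 after MCE1 were -0.51 to MCE2 (limma adjusted p 1.27e-05) and -0.91 to Day4 (adjusted p 1.8e-08). At MCE2 its log2 change from Control was -0.29 (limma adjusted p 0.00123), which shrank to -0.10 with no call under median-ratio scaling (adjusted p 0.181). Its fall from Day6 to Day8, -0.30 (limma adjusted p 0.00521), was not called in those 6 libraries alone (0.107). Mthfd1 kept 32.5% of its Control level at Day8.

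Mthfd2 (chr6:83255698-83267598) was at 186, 175 and 173 TPM in Control, 169, 159 and 178 at MCE1 and 206, 205 and 213 at MCE2. Its values in the differentiated groups were 188, 193 and 184 TPM at Day4, 153, 149.8 and 149 at Day6 and 146, 149 and 143 at Day8. MCE2 was above all other groups, Day6 and Day8 were below them and apart from each other, and the Control libraries overlapped both MCE1 and Day4. The change at MCE1 was -0.08 in log2 (limma adjusted p 0.159), and its sign depended on scaling: 0.04 with median ratios (adjusted p 0.603) and -0.14 with quantile normalization (adjusted p 0.0142).

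From MCE1 to MCE2 Mthfd2 rose by 0.30 (SE 0.04, limma adjusted p 4.02e-05), while 7 of the other 8 genes fell. The fall to Day4, -0.14 (limma adjusted p 0.0132), was lost without MCE2 replicate 3 (-0.13, adjusted p 0.055). A larger fall followed to Day6, -0.32 (SE 0.04, limma adjusted p 7.13e-05). Against Control it was not called at Day4 (0.08, limma adjusted p 0.111), yet it was higher under median-ratio scaling (0.23, adjusted p 0.00231), and its lower level at Day6 (-0.23) lost the call there (-0.08, adjusted p 0.204). At Day8 Mthfd2 had 82.0% of its Control level, -0.28 in log2 (SE 0.04, limma adjusted p 2.91e-05), while the other 8 genes had 10.5% to 39.8%.

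The TPM ratio of Mthfd2 to Mthfd1 was in no later group at its Control value. It was 1.98 ± 0.0478 (SD, n = 3) in Control, 1.61 ± 0.102 at MCE1, 2.86 ± 0.138 at MCE2, 4.93 ± 0.341 at Day4, 4.20 ± 0.268 at Day6 and 5.02 ± 0.353 at Day8. MCE1 lay below Control and the other 4 groups above it without overlap (exact permutation p 0.1 each, 0.154 adjusted over the 20 ratio tests). Mthfd2l, the related mitochondrial enzyme, averaged 16.5 TPM in Control and 16.3 at Day8, a log2 change of -0.02 (limma adjusted p 0.853). Mthfd1l, which completes the mitochondrial route to formate, was low and uneven, at 2.43, 1.01 and 0 TPM in the 3 Control libraries, and was listed at 0 at Day4, Day6 and Day8.

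**Figure D3:**
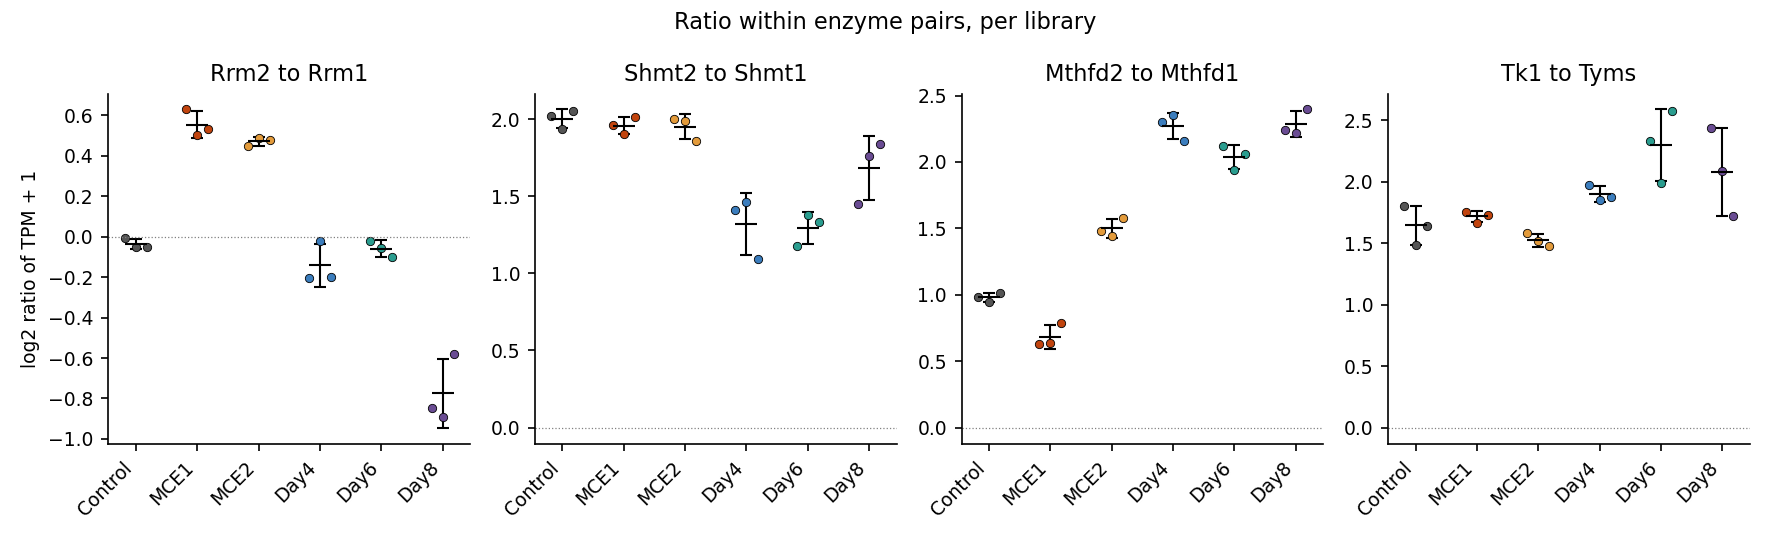
Log2 ratio of TPM + 1 within 4 enzyme pairs (vertical axes, each with its own range; dotted line at 0, equal levels) in the 6 groups; points are libraries, long bars means and error bars SD of 3 libraries. Rrm2 to Rrm1 is above Control at MCE1 and MCE2 and below it at Day8, Shmt2 to Shmt1 drops after MCE2, and Mthfd2 to Mthfd1 climbs from 0.68 at MCE1 to 2.29 at Day8.

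Impdh2, IMP dehydrogenase 2, rose at MCE1 like the DNA precursor genes, with no called change from there to MCE2. Impdh2 (chr9:108462767-108467915) was at 277, 284 and 272 TPM in Control, 399.8, 406 and 404 at MCE1 and 402, 382 and 394 at MCE2. Afterwards it went to 192, 202 and 206 TPM at Day4, 142, 144 and 145 at Day6 and 112, 108 and 112 at Day8. MCE1 and MCE2 overlapped and every other pair of neighbours was apart. The rise at MCE1 was 0.54 (SE 0.04, limma adjusted p 4.1e-09).

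The following step of Impdh2, -0.04 (limma adjusted p 0.425), was not called and turned to 0.04 under median-ratio scaling. Its falls came later, by 0.97 in log2 to Day4 (limma adjusted p 1.4e-11), 0.48 to Day6 (adjusted p 1.46e-07) and 0.37 to Day8 (adjusted p 5.54e-06). At Day8 it had 39.8% of its Control level. Of the 50-base stretches of the Impdh2 transcripts in the GENCODE vM21 annotation, 39.3% also occur in its pseudogene Impdh2-ps, so its level is uncertain where the counting could split such reads; for the other 8 genes the shared part was 0 to 5.72%. In that annotation other genes lie on the opposite strand over a part of an enzyme gene: Ndufaf3 over Impdh2 at 8.13 to 28.7 TPM, Afmid over Tk1 at 4.19 to 11.9 and Ndufa4l2 over Shmt2 at 0 to 3.65. By the mm9 positions listed with the TPM, Afmid and Ndufa4l2 overlap these genes as well, but Ndufaf3 does not overlap Impdh2. Ndufaf3 averaged 25.9 TPM at Day8, where Impdh2 was at 110.6, and Afmid 9.99, where Tk1 was at 27.3.

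Impdh1, which encodes the other isoform of the same enzyme, went the opposite way in the differentiated groups. It was at 75.7, 77.5 and 62.1 TPM in Control, 51.6, 50.4 and 53.2 at MCE1, 86.3, 80.1 and 80.2 at MCE2, 95.0, 145 and 148 at Day4, 202, 241 and 162 at Day6 and 203, 203 and 135 at Day8. Its libraries spread more than those of Impdh2 from Day4 on, yet all 9 of these later libraries lay above the 3 Control ones. The log2 change was -0.46 at MCE1 (SE 0.18, limma adjusted p 0.0475) and 1.30 at Day8 against Control (SE 0.18, adjusted p 9.96e-06). Impdh1 made up 20.5% ± 1.66 (SD, n = 3) of the summed TPM of both genes in Control, 11.4% ± 0.307 at MCE1, 17.3% ± 0.392 at MCE2, 38.9% ± 5.05 at Day4, 58.1% ± 4.98 at Day6 and 61.5% ± 5.88 at Day8. That share was computed after the values had been seen and has no test.

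**Figure D4:**
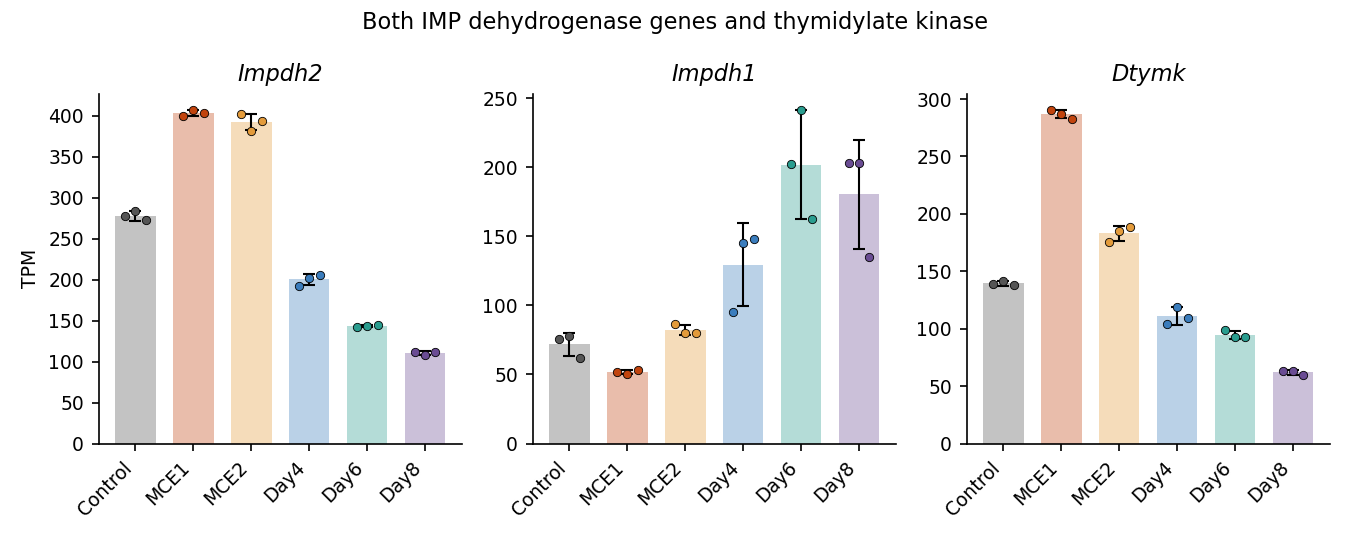
TPM (vertical axes, linear from 0) of Impdh2, Impdh1 and the thymidylate kinase Dtymk in the 6 groups; points are libraries, bars means and error bars SD of 3 libraries. Impdh2 falls after MCE2 to 108 to 112 TPM at Day8 while Impdh1 is at 135 to 203 there, and Dtymk peaks at MCE1.

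The rank of the 9 genes among themselves changed along the series. Impdh2 was the most abundant in Control, at 278 TPM, and at MCE1, MCE2 and Day4, and Mthfd2 was first at Day6 and Day8. Rrm2 was the second most abundant at MCE1, at 397 TPM, and the seventh at Day8, at 21.7. Tyms or Shmt1 came last in every group. In Control the 9 genes lay between the percentiles 74.0 (Tyms) and 96.1 (Impdh2) of all tested genes by TPM, and at Day8 between 27.4 (Tyms) and 91.1 (Mthfd2).

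Over the 18 libraries, Pearson's r of log2(TPM + 1) between any pair of Rrm1, Rrm2, Tyms and Tk1 was 0.968 to 0.992, and between Mthfd1 and these 4 genes 0.944 to 0.983; r does not reflect the size of the changes, which differed. Mthfd2 correlated least with the others, from 0.303 with Tk1 to 0.725 with Impdh2. These values describe 18 libraries that share 6 group means. Among 9278 candidate genes, those most like Rrm1 were Iqgap3 (r 0.998), Tubb5 and Kif4. Rrm2 was matched by Tuba1b, Plk1 and Ddx11 (r 0.991 to 0.992), Tyms by Pcna, Tuba1b and Snrpd3 (0.989 to 0.99), and Tk1 by Nusap1, Tubb4b and Cdca3 (0.985 to 0.989). Shmt1 was closest to Ccnb2 (0.972), Snx5 and Pimreg. Shmt2 was closest to Ccnyl1 (0.99), Prpf3 and Prep, and Mthfd1 to G3bp1, Eftud2 and Hnrnpl (0.995). The genes most like Mthfd2 were Rpl10 (0.975), Qars (0.957) and Eef1b2 (0.947), and those most like Impdh2 were Pop1, Prmt7 and Bop1 (0.988 to 0.991).

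Genes around the 9 in the same pathways were followed on 6 lists of 73 genes, of which 68 were tested. Both directions were seen on these lists at every step. From Control to MCE1, 20 of the 68 rose and 18 fell, beside 22.0% and 29.4% of all genes tested. From MCE1 to MCE2, 10 rose and 25 fell (all genes 17.7% and 25.2%), and from MCE2 to Day4, 18 rose and 28 fell (29.6% and 22.0%). At Day8 against Control, 18 were higher and 37 lower (31.7% and 39.7%), with a median log2 fold change of -0.52, beside -2.18 for the 9 and -0.11 for all genes. Of the genes listed as replication machinery for reference, 19 of the 19 tested fell from MCE1 to MCE2, with a median of -1.19, and so did 12 of the 12 mitosis genes, with a median of -1.58, beside 25.2% of all genes. At Day8 all of these were also below Control, with medians of -2.39 and -3.13.

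On the deoxyribonucleotide supply list, 5 of 11 tested genes rose at MCE1 and none fell, where 22.0% of all genes rose and 29.4% fell. Dtymk, the thymidylate kinase that acts after both TYMS and TK1, averaged 139 TPM in Control and 287 at MCE1, a log2 rise of 1.03 (SE 0.05, limma adjusted p 5.98e-11), beside 0.93 for Rrm2, the highest of the 9. Dctpp1, a pyrophosphatase that removes modified dCTP, rose by 0.85, and Samhd1, which breaks deoxyribonucleotides down, rose by 0.77 and had a log2 change from Control of -1.80 at Day8. At Day8, 7 of the 11 were lower than Control and 4 higher (all genes 39.7% and 31.7%). The higher ones included Rrm2b, the alternative small reductase subunit, at 4.77 TPM in Control and 12.3 at Day8 (log2 change 1.19, SE 0.19, limma adjusted p 3.74e-05). Tk2, the mitochondrial thymidine kinase, went from 11.7 to 22.7 TPM (0.87, limma adjusted p 0.000252). The group means of Rrm2 and Rrm2b were therefore 208 and 4.77 TPM in Control and 21.7 and 12.3 TPM at Day8.

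On the folate list, 3 of 21 genes were higher at MCE1 and 8 lower, beside 22.0% and 29.4% of all genes. Aldh1l2, the mitochondrial 10-formyltetrahydrofolate dehydrogenase, was at 59.1 TPM in Control and 11.1 at MCE1 (-2.31, limma adjusted p 6.58e-10). It averaged 10.7 TPM at Day4, 31.0 at Day6 and 69.6 at Day8, where it was no longer called against Control (0.22, limma adjusted p 0.164). Its cytosolic counterpart Aldh1l1 was listed at 0 in Control, MCE1 and MCE2 and averaged 7.42 TPM at Day4, 10.6 at Day6 and 12.4 at Day8.

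All 3 serine synthesis genes fell at MCE1, beside 29.4% of all genes. Phgdh, the first enzyme of that route, went from 502 TPM in Control to 171 (log2 change -1.55, SE 0.07, limma adjusted p 3.05e-11) and was at 295 at Day8. Psat1, the aminotransferase that follows it, fell by 0.75 and Psph, the phosphatase that ends it, by 0.42. Shmt2, which uses serine, fell at the same step.

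On the purine list, 7 of 16 genes rose at MCE1 and 4 fell (all genes 22.0% and 29.4%), and at Day8, 5 were above Control and 10 below (31.7% and 39.7%). Atic, which ends the synthesis of IMP, was at 233 TPM in Control and 73.3 at Day8 (-1.66, limma adjusted p 4.67e-13). Among 8 pyrimidine genes, Cad, which starts the pathway, was at 98.3 TPM in Control and 24.9 at Day8 (-1.94, limma adjusted p 1.64e-11), while the uridine-cytidine kinase Uck1 was at 53.9 and 383.7 (2.81, adjusted p 2.68e-15). Of 9 tested breakdown genes, 2 rose and 2 fell at MCE1, beside 22.0% and 29.4% of all genes. At Day8, 7 were below Control and 0 above (39.7% and 31.7%). Xdh, xanthine oxidoreductase, was at 131.5 TPM in Control and 466 at MCE1 (1.82, limma adjusted p 2.67e-10). Pnp, purine nucleoside phosphorylase, was at 47.1 and 94.8 (0.99, limma adjusted p 2.95e-10). At Day8 Xdh averaged 91.0 TPM and Pnp 33.4. The 2 that fell at MCE1 were Upp1, from 9.10 to 2.41 TPM (-1.71, limma adjusted p 0.0189), and Ada, from 7.95 to 4.46 (-0.67, adjusted p 0.0458).

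**Figure D5:**
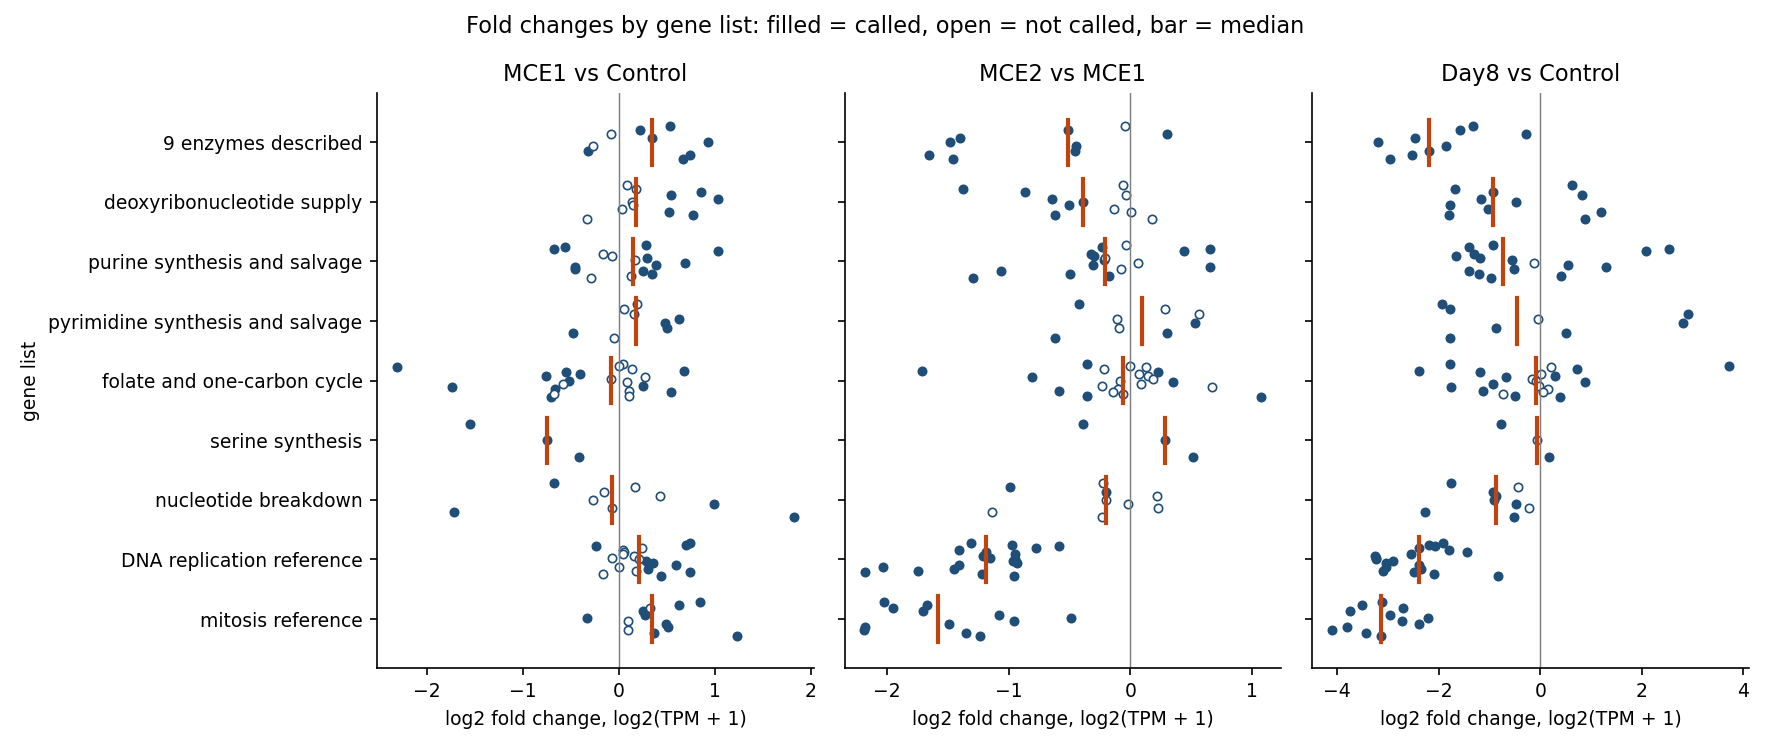
Log2 fold change (horizontal axes, log2(TPM + 1) scale) of every tested gene on the 9-enzyme list, 6 pathway lists and 2 reference lists (rows) in 3 comparisons (panels); filled points had an adjusted p under 0.05, open points did not, and the orange bar is the list's median. The enzymes' median is 0.34 at MCE1 against Control and -2.18 at Day8, where the 2 reference lists lie wholly below 0 and the folate list is spread around its median of -0.08.

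Reference genes of replication and division are given beside the 9 genes. Pcna, the sliding clamp of DNA polymerase, averaged 547 TPM in Control, 827 at MCE1, 311 at MCE2, 163 at Day4, 160 at Day6 and 104 at Day8. Mki67, a proliferation marker, was at 124 TPM in Control and 132 at MCE1 (0.09, limma adjusted p 0.623). It averaged 28.4 TPM at MCE2, 8.90 at Day4, 15.1 at Day6 and 6.33 at Day8. Top2a, DNA topoisomerase II alpha, was at 243 TPM in Control, 572 at MCE1, 243 at MCE2, 41.4 at Day4, 40.6 at Day6 and 26.7 at Day8. Its change between Control and MCE2 was not called (limma adjusted p 0.993). From Day4 to Day6, 5 of 19 replication genes and 5 of 12 mitosis genes rose and 0 fell. Of all genes, 14.5% rose and 11.2% fell at that step. The share of cycling cells in each group was not measured, and its part in the levels of the 9 genes was not tested.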

How the data were processed

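The authors deposited 1 table of TPM per gene for each of 18 polyA RNA libraries of 3T3-L1 cells. Per the submitters' processing notes, reads went through FastQC, cutadapt, HISAT2 and StringTie, with mm9 as the build and no versions. The annotation, and whether reads were assigned by strand, are not given in the sources used here; per the labels' protocols the kit was NEBNext Ultra II RNA, which does not mark strand. The listed TPM summed to 869497 to 880273 per library, and read depth is unknown. In 1 library 12 genes were listed at another locus and were left out, none of them among the 9.

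Groups came from the sample titles. The test was limma 3.58.1 in R 4.3.3 (trend and robust) on log2(TPM + 1), on the 12695 genes that reached 1 TPM in 3 or more libraries, with all 18 libraries, 1 mean per group and Benjamini-Hochberg adjustment over those genes; a call is an adjusted p under 0.05. The model had 12 residual degrees of freedom. Fold changes on this scale understate changes of low genes. Ratios within enzyme pairs were compared by exact two-sided permutation. Scripts ran in Python 3.11.15 with pandas 2.3.3 and were tested on simulated data.

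The 9 genes, the lists and the tests were chosen with earlier results of these data known. Named in every comparison were the 9 genes; of the lists, 11 genes that the rule names and up to 4 called genes per list with the largest changes and at least 5 TPM; and for each of the 9 genes the 3 most like it by Pearson's r. Some genes on the lists are counted but not reported here. Alternatives were a pseudocount of 0.1, no filter, a filter of 5 TPM, median-ratio scaling, quantile normalization, a fit of the 6 libraries compared, the replicate number as a block, and leaving out each library.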

Additional observations from a re-analysis of the deposited data

How the results depend on the processing

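Of the 81 fold changes of the 9 genes, 70 were called. Recomputed under the alternatives 1053 times in all, 1025 kept direction and side of the threshold; 7 called changes lost the call at least once, 4 uncalled ones gained it, and the 10 that changed sign were called in neither fit. The number of the 9 called higher at Day6 than Day4, 1 as reported, was 2 with a filter of 5 TPM, 0 in the 6 libraries alone and 0 to 2 with 1 library left out (0 without Day6 replicate 1, 2 without Day6 replicate 3). The number higher at Day4 than Control, 0 as reported, was 1 with median-ratio scaling (Mthfd2). The number lower at MCE1 than Control, 1 as reported, was 2 with quantile normalization, 2 in the 6 libraries alone and 1 to 2 with 1 library left out (2 without MCE1 replicate 3). Signs turned for Mthfd2 at MCE1 against Control (0.04) and Impdh2 from MCE1 to MCE2 (0.041) with median-ratio scaling, and for Tyms from Day4 to Day6 with quantile normalization (-0.026). With 1 library left out, the step from Day4 to Day6 ranged from -0.111 to 0.179 for Tyms, -0.056 to 0.152 for Shmt1 and -0.075 to 0.097 for Shmt2. The log2 ratio of Tk1 to Tyms at MCE1 minus Control was -0.009 with quantile normalization and -0.006 to 0.152 with 1 library left out (-0.006 without Control replicate 2). The causes were not tested.

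Over all genes, the 6 libraries of Day6 and Day8 alone gave 553 higher and 583 lower, beside 1287 and 1474 with the spread of all 18. At MCE1 against Control 3611 were higher and 3062 lower with median-ratio scaling, beside 2799 and 3727; at MCE2 against Control 3932 and 3926, and 3831 and 3920 with quantile normalization, beside 2969 and 4964. Same-numbered libraries did not clearly deviate together (correlations -0.07 to 0.09). The labels do not say whether the numbers pair the samples, and 3 libraries per group cannot exclude it. With the replicate block, 6 of the 9 were called higher at MCE1 as without it, and 0 of 99 results changed. The precision of low genes is limited by a depth that is not known.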
